A study of Mus musculus with 16 samples.

Results

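Penk and Pdyn encode the precursors of the enkephalin and dynorphin opioid peptides, and both were followed in the pituitary of every mouse in the series. They are 2 of the 17362 genes with a deposited value and were chosen by name, and both passed the filter on low values that 14345 genes passed. The samples were pituitary glands of 16 female mice aged 27 weeks, profiled by RNA sequencing, with 4 mice in each of 4 groups. Controls were Esr1 fl/fl mice, which carry the floxed oestrogen receptor alpha gene without Cre, and mutants were Esr1Nkx2-1Cre mice, in which the same floxed allele meets a Cre driven by Nkx2-1. Nkx2-1 is known for its activity in the ventral hypothalamus and in the lineage of the posterior lobe. Each genotype was kept on standard chow (standard diet, SD) or on a high-fat diet (HFD) for 17 weeks, and the mice came from a mixed CD-1;129P2 background. The study asked which secreted factors differ between mutant females, which have dense bone, and controls, and whether HFD alters them. In whole glands, more cells of a type and more RNA per cell cannot be told apart.

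Opioid peptides are cut from large precursors. Penk yields Met-enkephalin and Leu-enkephalin, which act on delta and mu opioid receptors, and Pdyn yields dynorphins and neoendorphins, which begin with the Leu-enkephalin sequence and act on the kappa receptor. Another precursor, Pomc, yields beta-endorphin together with corticotropin and melanotropin in corticotrophs and melanotrophs of the pituitary. Prohormone convertases cut the precursors at pairs of basic residues, and carboxypeptidase E trims the ends.

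Penk (ENSMUSG00000045573) lies on the minus strand at chr4:4133531-4138819 and Pdyn (ENSMUSG00000027400) on the minus strand at chr2:129686565-129699844 of GRCm38, with 2 and 3 transcripts in GENCODE M21. The following windows show what the 2 genes carry, since the copies of the enkephalin core are what makes each of them an opioid precursor. Each window is coding exon sequence read 5′ to 3′ from the annotated transcript, the capitals mark the codons of 1 enkephalin core, and the lower-case letters are the flanking codons. The longer Penk transcript (1449 bases, 804 of them coding) holds 6 Met-enkephalin cores and 1 Leu-enkephalin core.
Penk copy 1, Met-enkephalin, chr4:4134328-4134354: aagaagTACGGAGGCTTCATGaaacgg
Penk copy 2, Met-enkephalin, chr4:4134307-4134333: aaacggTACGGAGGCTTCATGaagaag
Penk copy 3, Met-enkephalin, chr4:4134220-4134246: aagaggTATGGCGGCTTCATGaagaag
Penk copy 4, Met-enkephalin, chr4:4134067-4134093: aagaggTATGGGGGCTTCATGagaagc
Penk copy 5, Met-enkephalin, chr4:4133995-4134021: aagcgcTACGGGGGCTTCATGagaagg
Penk copy 6, Leu-enkephalin, chr4:4133935-4133961: aagaggTATGGGGGCTTCCTGaagcgc
Penk copy 7, Met-enkephalin, chr4:4133842-4133868: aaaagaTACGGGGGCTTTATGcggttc
The longer Pdyn transcript (2386 bases, 744 coding) holds 3 cores, all of them Leu-enkephalin.
Pdyn copy 1, Leu-enkephalin, chr2:129688232-129688258: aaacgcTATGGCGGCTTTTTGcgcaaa
Pdyn copy 2, Leu-enkephalin, chr2:129688124-129688150: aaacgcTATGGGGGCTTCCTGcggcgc
Pdyn copy 3, Leu-enkephalin, chr2:129688067-129688093: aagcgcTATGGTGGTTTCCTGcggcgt
Codons for a pair of basic residues precede every core. They also follow every core except Penk copies 4 and 7. The shorter Penk transcript (721 bases) holds only copies 1 to 3. Values were deposited per gene, so the transcripts could not be told apart. Penk also shares 233 of its 1634 exonic bases, at chr4:4138321-4138710, with A830012C17Rik on the other strand, which was not analysed here. Whether the quantification used strand is not given in the sources used here, so reads from the shared stretch could belong to either gene. No gene of the annotation overlaps Pdyn.

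The deposited values are normalized expression per gene in units that allow for transcript length, and they summed to between 908897 and 1335782 per mouse. Comparing the lowest values of genes with a single transcript gave an approximate number of reads of 763 to 8740 per mouse for Penk and 119 to 553 for Pdyn, if all reads came from the longest transcript. Counting alone then contributes an error of 1.07% to 3.62% for Penk and 4.25% to 9.18% for Pdyn, below the spread between mice within each group. The anterior pituitary markers were present in all 16 mice at a summed level of 364989 to 605401. Esr1, the targeted gene, ranged from 29.0 to 46.6 in SD-fed controls and from 10.0 to 22.2 in SD-fed mutants. On HFD it ranged from 23.6 to 43.4 in controls and from 21.5 to 33.4 in mutants.

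A pair of libraries stood apart in tissue markers, P357 (mutant on SD) and P392 (control on HFD). The 4 melanotroph markers of the intermediate lobe summed to 16.3 in P357 and 52.2 in P392, against 124 to 285 in the other 14 mice. Pax7, the transcription factor that defines melanotrophs, was 0.132 and 1.16 in these mice and 4.58 to 13.5 in the others. Rax, a pituicyte factor, and Avp were listed at 0 in both. P392 also went against its label in several genes that separate the genotypes. Its Prlh value was 556, against 0 to 17.1 in the other 7 controls and 180 to 418 in the 8 mutants. Its Gal value was 2548, against 94.7 to 1294 in the other controls and 1819 to 3910 in the mutants. Its Esr1 value of 39.6 lay within the range of the controls, however. Results that rest on these mice are given with and without them.

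On SD, Penk was 5.67-fold higher in the pituitary of mutants than of controls (95% interval 3.49 to 9.20). Normalized Penk expression was 58.2 (P356), 71.8 (P358), 72.0 (P359) and 47.1 (P383) in the 4 controls. It was 463 (P357), 295 (P381), 357.5 (P382) and 308 (P384) in the 4 mutants. The lowest mutant stood well above the highest control, and the groups did not overlap. The difference was 2.50 on the scale of log2(value + 0.5), with a standard error of 0.33 (limma, adjusted p = 0.00415, and two-sided exact permutation test, p = 0.0286, the smallest that 4 against 4 mice allow). Over all tested genes, 1.84% passed the adjusted threshold of 0.05 in this comparison and 10.6% had groups that did not overlap. Without P357 the difference was 2.37 (exact permutation p = 0.0286). P357 had the highest Penk value of the 16 mice, but it also had the highest library sum. As a share of the sum, Penk was 0.0347% in P357 and 0.0310% to 0.0349% in the other 3 mutants on SD, and 0.00517% to 0.00777% in controls fed SD.

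Markers of other cells differed between the same groups. The summed level of the 4 endothelial markers was 33.7 to 46.1 in SD-fed controls and 61.2 to 71.2 in SD-fed mutants, and that of the 4 immune markers was 25.3 to 37.1 and 46.2 to 122. The 3 markers of stem and folliculostellate cells summed to 39.2 to 47.6 in SD-fed controls and to 52.8 to 83.4 in SD-fed mutants, again without overlap. The 4 posterior lobe markers summed to 14.7 to 18.0 in SD-fed controls and, in SD-fed mutants, to 14.6 in P357 and 21.5 to 23.5 in the others. The higher sum came from Col25a1 alone (mean 7.96 in controls, 15.9 in mutants), while the means of Nkx2-1 (1.73 and 0.969), Rax (2.74 and 1.22) and Scn7a (3.35 and 2.26) were lower in mutants. The part of these cells in the Penk difference was not tested. The 4 measured markers of hypothalamic neurons summed to 13.9 to 23.4 in controls and 24.1 to 33.6 in mutants on SD. Most of it came from Slc17a6, which was 8.76 to 16.1 in controls on SD and 18.4 to 26.7 in mutants on SD. Agrp had a lower mean in these mutants (3.73 in controls and 2.79 in mutants). Cartpt (1.74 and 2.43) and Hcrt (0.327 and 1.31) had higher means.

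**Figure D1:**
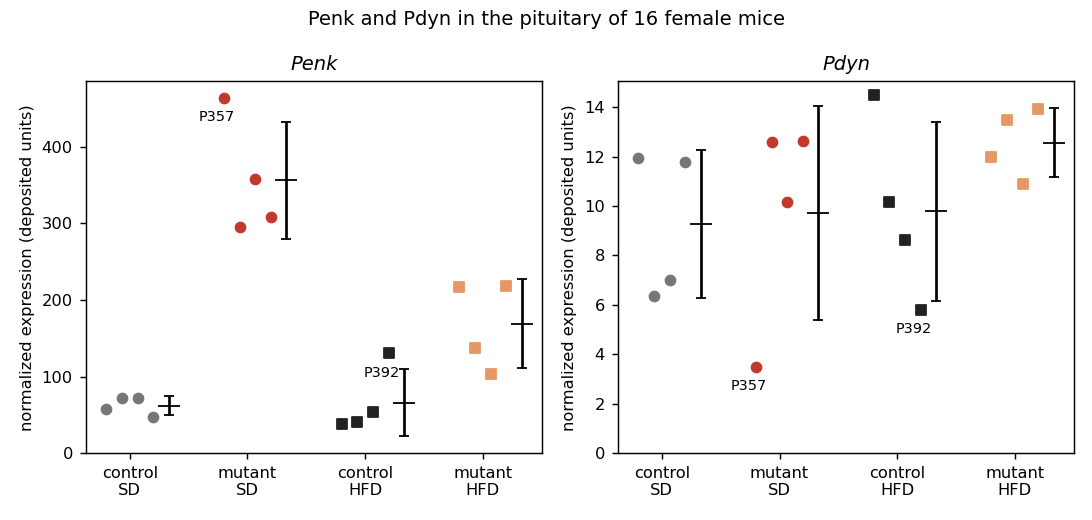
Normalized expression of Penk (left) and Pdyn (right) in deposited units on linear axes, with 1 point per mouse, and beside each group its mean (horizontal mark) and standard deviation (bar, n = 4). Penk stands at 295 to 463 in the 4 mutants on SD and at 47.1 to 72.0 in the controls on SD, whereas the 4 groups overlap in Pdyn, where P357 (3.49) is the lowest mouse.

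On HFD, Penk was 38.0 (P385), 41.5 (P390), 54.1 (P391) and 130 (P392) in controls. It was 218 (P339), 137 (P341), 103 (P387) and 218 (P388) in mutants. The groups overlapped through P392, whose value exceeded that of the mutant P387. The log2 difference was 1.47 (standard error 0.33), a fold of 2.77 (95% interval 1.70 to 4.49), and it did not pass after adjustment (limma, adjusted p = 0.205, and exact permutation p = 0.0571). None of the tested genes passed in this comparison (0%, whereas limma gave 1461 an unadjusted p under 0.05), and 5.3% had groups that did not overlap. Without P392 the difference was 1.86 and passed (limma, adjusted p = 0.000588), with exact permutation p = 0.0286, the smallest possible for 3 against 4 mice. Without both P357 and P392, 7.32% of all tested genes passed on HFD and Penk was among them. P392 also had the highest summed endothelial markers of the 16 mice, 86.6. Without P392, several marker lists separated the genotypes on HFD as Penk did. Endothelial markers summed to 37.6 to 42.7 in the 3 controls and 61.8 to 74.5 in the mutants, posterior lobe markers to 12.9 to 15.9 and 20.9 to 24.4, and hypothalamic neuron markers to 17.9 to 21.2 and 30.1 to 38.4. Gonadotroph markers separated the other way (1076 to 1438 and 402 to 795). With P392 kept, most of the posterior lobe sum was Col25a1 (mean 9.99 in controls, 17.0 in mutants). Nkx2-1, Rax and Scn7a did not separate the genotypes on HFD, also without P392. They reached 1.70, 1.92 and 3.63 in controls other than P392. In mutants they ran from 1.10 to 1.46, 0.834 to 2.21 and 2.91 to 4.01. Of the neuron markers, Slc17a6 was higher in mutants (means 16.3 and 27.3) and Agrp lower (3.98 and 2.32). Most of the gonadotroph sum was Lhb, the luteinizing hormone beta subunit gene (means 959 and 419). Fshb had a higher mean in mutants (18.7 in controls and 31.0 in mutants). The means of Gnrhr (66.5 and 65.9) and Nr5a1 (18.6 and 16.8) differed little. The part of these cells in the Penk values was not tested.

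Over both diets together, Penk was 3.96-fold higher in mutants (95% interval 2.81 to 5.58). The log2 difference was 1.99 with a standard error of 0.23 (limma, adjusted p = 0.00161, and exact permutation within diet, p = 0.000816), and 6.54% of the tested genes passed in this comparison. Of the 8 mutants, 7 lay above every control. The exception was P387.

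Within mutants, Penk was lower on HFD than on SD, at 103 to 218 against 295 to 463, with no overlap. The log2 difference was -1.12 (95% interval -1.82 to -0.42), or 0.46 of the level on SD. It did not pass after adjustment over all genes (limma, adjusted p = 0.813), although the exact permutation test gave its smallest possible value (p = 0.0286). No tested gene passed here (0%, whereas limma gave 717 an unadjusted p under 0.05), and 3.31% had diets that did not overlap. Without P357 the difference was -0.99 and the exact permutation p rose to 0.0857. Summed melanotroph markers were 16.3 to 171 in SD-fed and 188 to 251 in HFD-fed mutants, without overlap, and gonadotroph markers had medians of 963 and 467 (698 to 1298 and 402 to 795). Most of the gonadotroph sum was Lhb (mean 854 on SD and 419 on HFD), and Fshb had means of 44.5 and 31.0. The gonadotroph markers Gnrhr (means 65.1 and 65.9) and Nr5a1 (17.0 and 16.8) hardly differed. The part of these cells in the diet difference of Penk was not tested.

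In controls, mean Penk expression was 62.3 ± 12.02 (s.d., n = 4) on SD and 66.0 ± 43.4 (s.d., n = 4) on HFD, a log2 difference of -0.09 (95% interval -0.78 to 0.61 by limma, adjusted p = 0.999, and exact permutation p = 0.886). Again 0% of the tested genes passed, although limma gave 592 an unadjusted p under 0.05, and 2.61% had diets that did not overlap. Without P392 the difference was -0.47 (exact permutation p = 0.114). The interaction of genotype and diet for Penk was -1.03 (95% interval -2.02 to -0.05). Its unadjusted p was 0.0413 in limma and its adjusted p 0.924, where 0% of the genes passed and 602 had an unadjusted p under 0.05. A different response of the genotypes to HFD was thus not shown for Penk, and without both P357 and P392 the interaction was -0.51. Averaged over the genotypes, HFD against SD gave -0.60 for Penk (95% interval -1.10 to -0.11 by limma, adjusted p = 0.8995, and exact permutation p = 0.0612). In that comparison 0.00697% of the tested genes passed, which is 1 gene, Plat, named here after its value was seen. Without P392 the Penk difference was -0.80 (exact permutation p = 0.00163). It did not pass over all genes with any single mouse left out (limma, adjusted p at least 0.353).

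The order of the group means for Penk was mutants on SD (355.97 ± 76.4, s.d., n = 4), mutants on HFD (169 ± 58.1, s.d., n = 4), and then both control groups. The first step in this order separated all mice and the next was overlapped by P392. The controls did not differ beyond their spread, and their order turned on P392, without which the mean on HFD was 44.6 ± 8.45 (s.d., n = 3), below the 62.3 on SD. The medians of the 4 mice each were 47.8 on HFD and 65.0 on SD. The coefficient of variation of Penk was 19.3% in controls on SD, 21.5% in mutants on SD, 34.4% in mutants on HFD and 65.8% in controls on HFD (19.0% without P392).

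**Figure D2:**
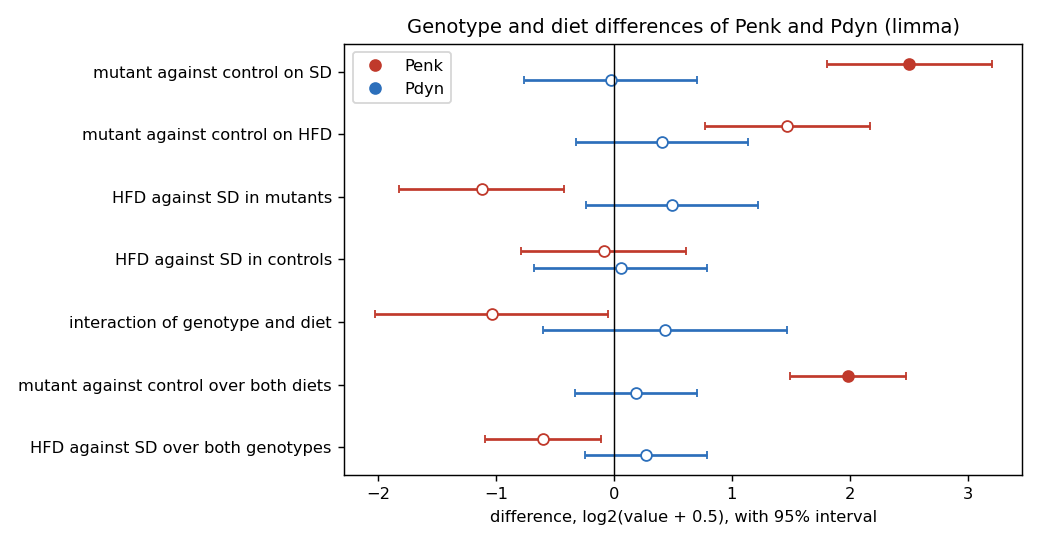
Differences of Penk (red) and Pdyn (blue) in 7 comparisons on the scale of log2(value + 0.5), with 95% intervals from limma; filled points have an adjusted p under 0.05. The filled points are Penk between genotypes on SD (2.50) and over both diets (1.99), and every interval of Pdyn includes 0.

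Pdyn, the dynorphin precursor, did not pass in any comparison. Its normalized expression was 11.9 (P356), 6.38 (P358), 7.02 (P359) and 11.8 (P383) in controls on SD. In mutants on SD it was 3.49 (P357), 12.6 (P381), 10.2 (P382) and 12.6 (P384). Controls on HFD had 14.5 (P385), 10.2 (P390), 8.65 (P391) and 5.81 (P392), and mutants on HFD had 11.99 (P339), 13.5 (P341), 10.9 (P387) and 13.9 (P388). All 4 groups overlapped, and the lowest Pdyn values of the mutants and of the controls on HFD belonged to P357 and P392, the mice with few melanotroph markers. The part of this in the Pdyn values was not tested.

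Between genotypes, the log2 difference of Pdyn was -0.03 on SD (95% interval -0.76 to 0.71 by limma, adjusted p = 0.974, and exact permutation p = 1.0) and 0.41 on HFD (-0.32 to 1.14, adjusted p = 0.748, and exact permutation p = 0.2). In fold terms the intervals reach from 0.591 to 1.63 on SD and from 0.799 to 2.20 on HFD, so a change of Pdyn as large as the 5.67-fold of Penk on SD lies outside them, while changes of up to 1.63-fold on SD and 2.20-fold on HFD do not. Between diets it was 0.49 in mutants (-0.24 to 1.22, adjusted p = 0.813, and exact permutation p = 0.229) and 0.06 in controls (-0.67 to 0.79, adjusted p = 0.999, and exact permutation p = 0.857). The interaction was 0.43 (-0.60 to 1.47 by limma, adjusted p = 0.93). Over both diets the genotype difference was 0.19 (-0.33 to 0.71 by limma, adjusted p = 0.695, and exact permutation p = 0.494), and over both genotypes the diet difference was 0.27 (-0.24 to 0.79 by limma, adjusted p = 0.913, and exact permutation p = 0.353). Without P357 the sign of the Pdyn difference on SD turned, to 0.38 (exact permutation p = 0.286), and without P392 the difference on HFD was 0.20 (exact permutation p = 0.371).

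Since the deposited unit allows for length, levels of the precursors can be set side by side. Penk exceeded Pdyn in all 16 mice, with a ratio of levels from 2.62 in P385 to 133 in P357. The median ratio was 7.57 in controls on SD, 29.8 in mutants on SD, 5.17 in controls on HFD and 12.9 in mutants on HFD. Pomc exceeded Penk in every mouse, with a ratio of levels from 3.57 in P357 to 777 in P391. Pomc was 1654 in P357 and 3443 in P392, the lowest values of the 16 mice, against 11234 to 42042 in the others. Pomc itself had a log2 difference between genotypes on SD of -0.81 (limma, adjusted p = 0.525), which was -0.05 without P357. The remaining precursor, Pnoc, was not analysed here.

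The kappa, delta and nociceptin receptors were scarce in these glands. Oprk1, the kappa receptor at which dynorphins act, had values of 0.397 to 2.05, and its log2 difference between genotypes on SD was -0.24 (limma, adjusted p = 0.676). The delta receptor Oprd1 (0.0881 to 0.422) and the nociceptin receptor Oprl1 (0.067 to 0.415) lay below the filter, and the mu receptor Oprm1 was not analysed here. For Oprd1 and Oprl1 the exact permutation tests between genotypes on SD gave p = 0.0571 and p = 0.429. Ackr3, a scavenger receptor for opioid peptides, was 1.35 to 2.05 in controls on SD and 2.57 to 3.60 in mutants on SD, without overlap. Its log2 difference of 0.61 did not pass (limma, adjusted p = 0.117). Ogfr, which binds Met-enkephalin, was more abundant (21.7 to 35.8) and had a log2 difference of -0.04 on SD (limma, adjusted p = 0.894). None of the 4 tested receptor genes passed in any of the 7 comparisons.

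The wider opioid list held 43 genes (precursors, receptors, processing and degrading enzymes, granule proteins and factors known to act on the Penk enhancer), of which 39 were tested. The list was chosen with earlier results of these data known, so its shares beside those of all genes are given as a description. On SD, 3 of the 39 rose in mutants and none fell, 7.69% against 1.84% of all tested genes. The median log2 difference of the list was -0.04, beside -0.01 over all tested genes. The 3 genes were Penk, Jun and Jund, the last 2 being AP-1 subunits. Jun was 8.06 to 13.2 in controls and 20.5 to 41.1 in mutants on SD (log2 difference 1.14 by limma, adjusted p = 0.0466). Jund was 84.0 to 107 in controls and 126 to 147 in mutants on SD (log2 difference 0.53 by limma, adjusted p = 0.0456). Both lay close to the threshold. The count on SD fell to 1, Penk alone, when any of 11 single mice was left out (P339, P341, P357, P358, P359, P381, P382, P383, P384, P385 or P388).

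Around these, most of the pathway did not pass. Among the 8 processing genes none passed on SD. Their log2 differences ran from -0.61 (Pcsk2, the convertase of melanotrophs) to 0.14 (Pcsk1, the convertase of corticotrophs). Pcsk2 was 10.99 in P357, 59.3 to 70.7 in the other mutants on SD and 52.3 to 77.0 in SD-fed controls, and without P357 its difference was 0.02. The 8 peptide-degrading enzymes had log2 differences of -0.41 (Ace) to 0.57 (Ece2), again with none past the threshold. Of the 5 granule proteins, Scg2 had a log2 difference of -1.15 on SD (limma, adjusted p = 0.0786) and Vgf, a granin-like precursor induced by neurotrophins, one of 1.94 (limma, adjusted p = 0.116). Atf3, a stress-induced factor of the CREB/ATF family, had one of 1.80 (limma, adjusted p = 0.0995), with a standard error of 0.56.

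Over both diets, 3 of the 39 genes rose and none fell (7.69% against 6.54% of all tested genes), which is a share near that of all genes. They were Penk, Jund (log2 difference 0.40 by limma, adjusted p = 0.0181) and Vgf (2.03, adjusted p = 0.0162). Vgf was 14.4 to 24.01 in controls and 58.8 to 89.8 in mutants fed SD. On HFD it was 9.48 to 165 in controls and 60.7 to 150 in mutants. The 165 was again P392, and the other controls on HFD reached at most 13.7. Without both P357 and P392, 12 of the 39 passed over both diets, 10 higher and 2 lower in mutants, while 18.5% of all tested genes passed in that fit. These were Penk, Ackr3, Atf3, Ece2, Fosb, Fosl2, Jun, Jund, Pcsk1, Pcsk1n, Scg5 and Vgf. With single mice left out, the count was 6 without P356, 6 without P357 and 7 without P392. The shares of all tested genes in those fits are not given, so these counts cannot be set against them. None of the 39 passed in the other 5 comparisons by limma with all mice. Without P357 and P392, 4 of the list rose in mutants on HFD (Penk, Vgf, Ece2 and Jund), where 7.32% of all tested genes passed.

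**Figure D3:**
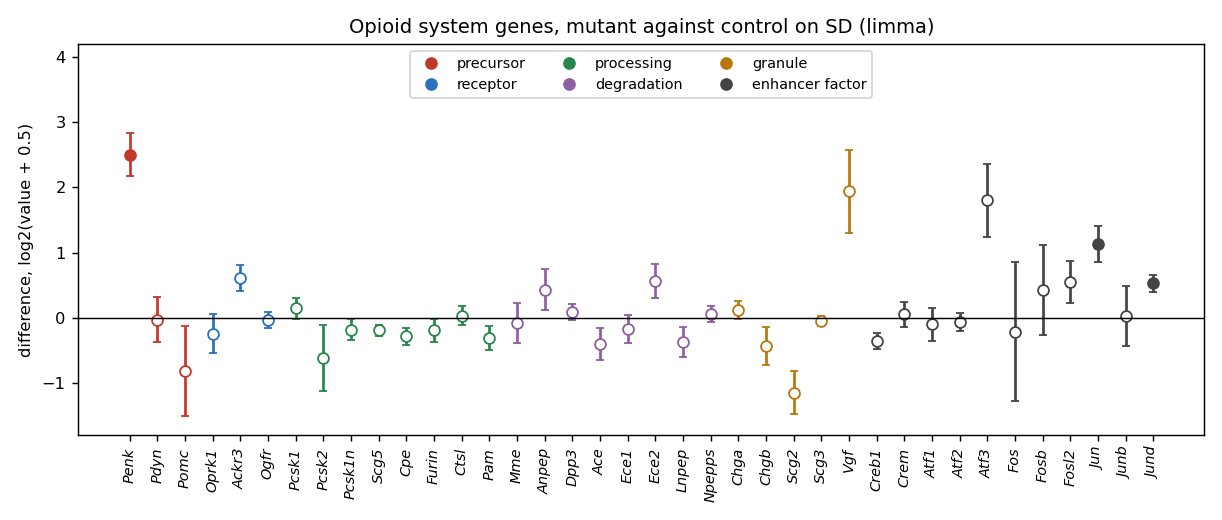
Difference between mutants and controls on SD for the tested genes of the opioid list, except 1 gene not reported here, on the scale of log2(value + 0.5), coloured by role, with bars for the standard error; filled points have an adjusted p under 0.05 in limma. Penk (2.50), Jun (1.14) and Jund (0.53) are filled, and Pdyn (-0.03) lies near 0.

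Penk was also set against Esr1, the gene deleted by Cre, mouse by mouse. Esr1 was 40.5 (P356), 46.6 (P358), 39.4 (P359) and 29.0 (P383) in controls on SD and 10.0 (P357), 22.2 (P381), 20.5 (P382) and 21.8 (P384) in mutants on SD. On HFD it was 23.6 (P385), 43.4 (P390), 42.7 (P391) and 39.6 (P392) in controls and 33.4 (P339), 27.9 (P341), 33.03 (P387) and 21.5 (P388) in mutants. The genotypes were separate on SD and overlapped on HFD. The log2 difference of Esr1 was -1.09 on SD (limma, adjusted p = 0.0409, and exact permutation p = 0.0286), -0.34 on HFD (adjusted p = 0.696, and exact permutation p = 0.2) and -0.71 over both diets (adjusted p = 0.028, and exact permutation p = 0.00449).

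Because the groups form separate clusters in Penk, relations were tested on deviations from the group means. The relation of Penk with Esr1 over the 16 mice did not pass (Pearson's r = -0.03, exact permutation p = 0.933; Spearman's rho = -0.17, exact permutation p = 0.530, adjusted p = 0.978 for r over 25 relations). Without P385 and P357, the 2 mice farthest from the median in the deviations of Esr1, r was -0.11. Within the 8 controls, also with group means removed, r was 0.45 (exact permutation p = 0.372), and -0.41 without P383 and P385. Within the 8 mutants r was -0.59 (exact permutation p = 0.0816, adjusted p = 0.360, rho = -0.48), and 0.07 without P388 and P357. If the group means are kept, r over the 8 mutants is -0.80, given as a description because the mutants on SD and on HFD do not overlap in Penk and the value contains the difference between diets. In mutants Esr1 was 0.67 higher on HFD on the log2 scale (exact permutation p = 0.0857).

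**Figure D4:**
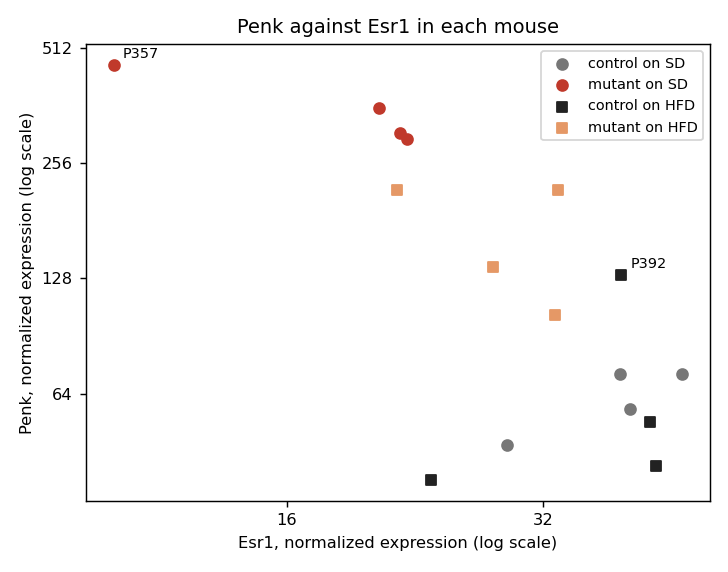
Penk against Esr1 in each of the 16 mice, in deposited units on log axes, with the colour and shape of a point giving its group. Mutants on SD lie at the upper left, with Esr1 at 10.0 to 22.2 and Penk at 295 to 463, and P392 has a Penk value of 130 at an Esr1 value of 39.6.

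Penk was then compared with the other secreted peptides of the gland. Of 37 peptide genes listed, 24 had values, and all 24 passed the filter. This list too was chosen with earlier results of these data known, so its shares are given as a description. On SD, 4 of the 24 (16.7%, against 1.84% of all tested genes) rose in mutants and none fell, with a median log2 difference of 0.24 over the list. They were Gal, galanin, which lactotrophs make under oestrogen (log2 difference 3.16 by limma, adjusted p = 0.0363), Vip, a releaser of prolactin (2.61, adjusted p = 0.00825), Nmb, neuromedin B (1.00, adjusted p = 0.0468), and Prlh, the prolactin releasing hormone gene (8.07, adjusted p = 0.0297). In 3 of the 4 SD-fed controls Prlh was listed at 0, and the size of its difference therefore depends on the pseudocount. Over both diets 6 of the 24 passed (25%, against 6.54% of all genes). Vip (2.07 by limma, adjusted p = 0.00161), Gal (2.50, adjusted p = 0.0101), Prlh (6.88, adjusted p = 0.00515), Nmb (0.65, adjusted p = 0.0367) and Vgf (2.03, adjusted p = 0.0162) were higher in mutants. Nmu, neuromedin U, was lower (-0.92, adjusted p = 0.0427). In the other 5 comparisons none of the 24 passed by limma. Without P357 and P392, 23 of the peptide genes passed the filter. Of these, 4 passed on SD (Gal, Prlh, Vgf and Vip), 7 on HFD (Adcyap1, Gal, Lhb, Nmu, Prlh, Vgf and Vip) and 8 over both diets (the same 7 and Nmb), where 6.65%, 7.32% and 18.5% of all tested genes passed.

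Mouse by mouse, with group means removed, none of the 25 relations of Penk with Esr1 and the 24 peptides passed after adjustment over all 16 mice, and 4 had an unadjusted exact permutation p under 0.05. Gh, growth hormone, had an r of 0.28 (exact permutation p = 0.313) and a rho of 0.47. Its r was 0.88 without P392 and P387, the 2 mice farthest from the median in the deviations of Gh. That value had an exact permutation p of 0.00149 and an adjusted p of 0.0374 over the 25 relations. The closest over all 16 mice were Vip, Pdyn, Avp and Oxt. For Vip, r was 0.65 (exact permutation p = 0.00652, adjusted p = 0.0543) and rho 0.77 (exact permutation p = 0.00318, adjusted p = 0.0795). Without P357 and P381 its r was 0.72 (exact permutation p = 0.0281, adjusted p = 0.352). It was 0.58 without P357 and P392. Vip was 37.8 in P357, 9.15 in P381, 24.8 in P382 and 24.7 in P384, so its highest value fell in the mouse with the highest Penk and its lowest in the mutant with the lowest Penk on SD. In mutants on HFD Vip was 17.0 (P339), 7.11 (P341), 6.60 (P387) and 13.7 (P388), and the pair with Penk at 218 again had the higher values.

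With Pdyn itself, Penk had an r of -0.61 (exact permutation p = 0.00582, adjusted p = 0.0543) and a rho of -0.51 (exact permutation p = 0.0381, adjusted p = 0.238). Without P392 and P357, r was -0.38. The posterior lobe hormones vasopressin (Avp, r = -0.79, exact permutation p = 0.00581, adjusted p = 0.0543, rho = -0.59, exact permutation p = 0.0234) and oxytocin (Oxt, r = -0.66, exact permutation p = 0.0104, adjusted p = 0.0647, rho = -0.59, exact permutation p = 0.00928) behaved likewise. Their r was -0.43 and -0.38 without P357 and P392. Oxt was 0.792 in P357 and 2.10 in P392, against 14.2 to 36.6 in the other mice. These 3 relations were thus weaker, though still negative, without the 2 mice with few markers of the intermediate lobe. Their exact permutation p was then 0.172 for Pdyn, 0.204 for Avp and 0.344 for Oxt.

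Within each genotype, with the means of its diet groups removed, none of the 25 relations passed after adjustment. In the 8 controls 5 had an unadjusted exact permutation p under 0.05, and in the 8 mutants 3 did, in a design whose smallest p is 0.00174. The closest in controls was Lhb, the luteinizing hormone beta subunit (r = -0.98, exact permutation p = 0.00347, adjusted p = 0.0868, rho = -0.95), with r = -0.88 without P385 and P392. Pdyn had the same adjusted p in controls (r = -0.85, exact permutation p = 0.00694, adjusted p = 0.0868, rho = -0.81). Without P385 and P392 the r of Pdyn was -0.86 (exact permutation p = 0.125). For Pdyn in mutants r was -0.37 (exact permutation p = 0.236), and 0.31 without P384 and P357. Among the mutants the r of Lhb was 0.41 (exact permutation p = 0.415), and the difference between the genotypes was not tested. The closest in mutants were Gh (r = 0.93, exact permutation p = 0.00521, adjusted p = 0.109) and Nmb (r = 0.94, exact permutation p = 0.00868, adjusted p = 0.109), followed by Vip (r = 0.81, exact permutation p = 0.0382, adjusted p = 0.318). Without the 2 mice farthest in the deviations of each gene, r was 0.92 for Gh, 0.90 for Nmb and 0.95 for Vip. Each of these had an exact permutation p of 0.0556. In the 8 controls r was -0.20 for Gh, 0.04 for Nmb and 0.61 for Vip (exact permutation p = 0.620, 0.911 and 0.191).

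**Figure D5:**
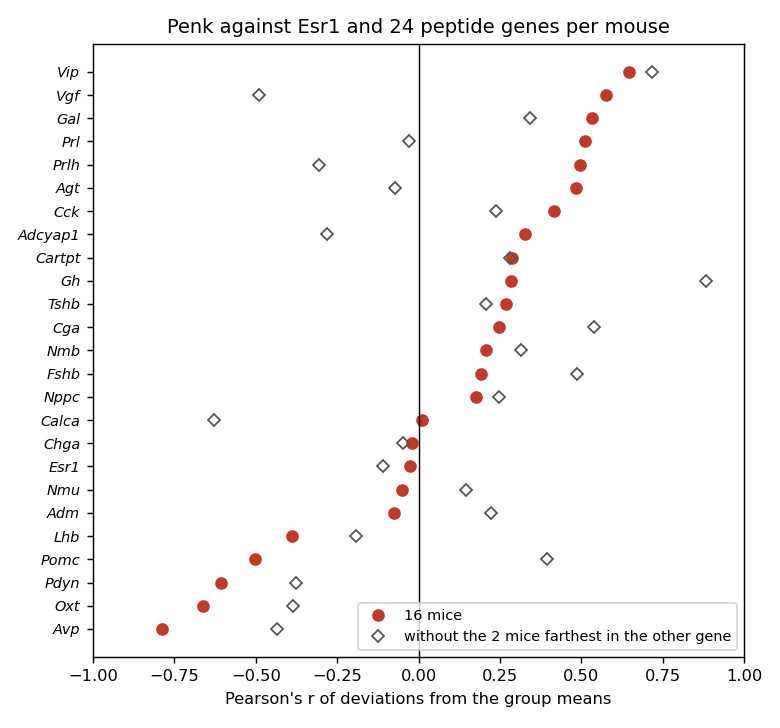
Pearson's r between Penk and each of 25 genes over the 16 mice, as deviations from the group means (filled circles). Open diamonds give r without the 2 mice farthest from the median in the deviations of the other gene. Vip is at 0.65 and, without P357 and P381, at 0.72. Avp moves from -0.79 to -0.43 and Pdyn from -0.61 to -0.38, both without P357 and P392.

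The tested genes whose log2 values followed Penk most closely over the 16 mice were Vip (r = 0.94), Pld3 (0.93), Col5a3 (0.93), Piezo2 (0.92), Pak1 (0.92), Kcnt2 (0.91), Gm7694 (0.91) and Ass1 (0.91). These values share the group differences and are given as a description. As deviations from the group means, the r of the 8 genes with Penk lay between 0.53 (Pak1) and 0.75 (Ass1), but that of Col5a3 was 0.71 with all mice and -0.06 without P357 and P392. Vip had group means of 3.19 in controls on SD, 24.1 in mutants on SD, 3.38 in controls on HFD and 11.1 in mutants on HFD, the same order of the mutant groups as Penk. Col5a3, a collagen chain, went from 1.52 in controls on SD to 3.27 in mutants on SD and 2.26 in mutants on HFD. Piezo2, a mechanosensitive channel, went from 1.26 to 3.10 and 2.02. The genes of most opposite pattern were Edil3 (r = -0.89), Plekhg6 (-0.87), Irs4 (-0.87) and BC051142 (-0.86). Edil3, an integrin ligand, was 37.0 in controls on SD and 16.4 in mutants on SD. Without P357 and P392, 3 of the 8 closest genes were again among the closest 8 (Vip, Col5a3 and Pak1) and 0 of the 4 most opposite.

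Pdyn had other companions. Its closest genes were Pcna-ps2 (r = 0.91), Esm1 (0.87), Smim7 (0.87), Rab11fip4 (0.86), Arl9 (0.86), Rnf4 (0.86), Spint1 (0.85) and Fam49b (0.85). The most opposite were Stc2 (-0.89), Cars (-0.87), Gm28551 (-0.87) and Gm48493 (-0.86). Esm1 is one of the 4 melanotroph markers, and it was 3.58 in P357 and 11.5 in P392 against 14.7 to 52.3 in the other mice. Pcna-ps2 is a processed copy of Pcna, and reads may be split between such copies, so its level is uncertain. Without P357 and P392 only Pcna-ps2 stayed among the 8 closest, and 0 of the 4 most opposite did. These genes were picked out of 14345 by r itself, so no test is given.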

How the data were processed

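Novogene prepared and sequenced libraries from total RNA of 16 pituitaries (NEBNext Ultra II RNA, NovaSeq). Kallisto, Sleuth and mm10 are named in the submitters' processing notes, and versions, the annotation release and the use of strand are not given in the sources used here. The deposited table holds a normalized signal per gene and mouse, and no counts. Steps between the lowest values of 1426 genes with 1 transcript gave approximate reads, with 82.2% to 91.5% of those values within 0.1 of a whole number, too few for a count model. Values were analysed as log2(value + 0.5) for genes with a mean of at least 1 (14345 genes) by limma 3.58.1 (R 4.3.3, trended eBayes) with 1 mean per group, and p-values were adjusted by Benjamini and Hochberg over all tested genes of a comparison at 0.05. Permutation tests were exact and two-sided, and those for correlations permuted mice within groups, except where group means were kept, when all 8 mice of a genotype were permuted. Groups came from the labels, which do not state litters or batches; 17351 of 17362 identifiers had a symbol. Gene positions and sequences were read from GENCODE M21 on GRCm38. Named genes are Penk, Pdyn, Esr1, list genes past the threshold, precursors, receptors, and the 8 most and 4 least similar genes; other list genes were named after their values were seen. Of the opioid list, 1 receptor gene is counted but not reported here. The members and lists were chosen with earlier results of these data known. Alternatives changed the filter, pseudocount, scaling, variance model, covariate and mice.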

Additional observations from a re-analysis of the deposited data

Results flagged for a closer look

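Dixon's test was applied to Esr1 and the opioid precursor and receptor genes, in 40 sets of 4 mice, of which chance alone would give 2.0. A mouse was far from the other 3 of its group in 2 cases. Esr1, the targeted gene, was 10.0 in the mutant P357 on SD and 20.5 to 22.2 in the other mutants on SD. P357 is the mouse with the highest Penk value (463) and few melanotroph markers. Oprk1, the kappa receptor gene, was 1.39 in the mutant P388 on HFD and 0.609 to 0.627 in the other mutants on HFD. Pdyn in P388 was 13.9, the highest of its group by a small margin.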

How the results depend on the processing

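Penk between genotypes passed on SD under all 12 alternatives (2.33 to 2.70, adjusted p at most 0.0131) and with each of the 16 mice left out (2.37 to 2.58, adjusted p at most 0.0284), and over both diets under all 11 (1.89 to 2.11) and with each mouse left out (1.89 to 2.18). On HFD it passed only without P392 (1.27 to 1.86 with single mice left out) and without P357 and P392, an alternative chosen after seeing the data (1.86). No alternative brought a Pdyn difference past the threshold. Without P357 and P392, the Pdyn difference on SD was 0.38, the Pdyn interaction -0.18 and Penk against Esr1 0.15. Each had the other sign than with all mice. The opioid count was then 5 on SD and 12 over both diets, where 6.65% and 18.5% of all tested genes passed. With the range of animal numbers in the labels as a covariate, the diet difference in controls changed sign to 0.21 for Penk and -0.41 for Pdyn. All controls on HFD fall in the upper range, so that covariate is partly confounded with diet. The opioid count on SD was 1 with a minimum mean of 5, without the trend, and with libraries scaled to one sum, which was added after seeing the data and moved the median of all genes on SD to -0.17 (Penk 2.33). Penk against Esr1 was 0.0731 after quantile normalization and 0.46 in the 8 controls. If group means are kept, so that diet is ignored, the number of peptides related to Penk was 1 in the 8 controls and 3 in the 8 mutants. With group means removed, added after seeing the data, it was 0 in both and Penk against Esr1 was 0.45 in the controls. With single mice left out, Pdyn on SD ran from -0.20 to 0.38, the diet difference in controls from -0.47 to 0.11 for Penk and -0.15 to 0.27 for Pdyn, the opioid count from 1 to 4 on SD and from 3 to 7 over both diets, Penk against Esr1 from -0.28 to 0.20, and the number of related peptides from 0 to 1 (without P387 or P392). The cause was not tested for any of these changes, and shares of all tested genes are not given for single mice left out. No paired analysis was possible because the labels give no replicate numbers shared between groups. With 4 mice a group the exact test cannot go below p = 0.0286, and values without counts set a limit on depth only approximately.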
